A study of Homo sapiens with 11 samples.

Results

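Amino acids enter a cell through carrier proteins of the solute carrier (SLC) families, and 10 genes for such plasma membrane carriers are described here in breast cancer xenografts. The genes were taken by symbol: SLC3A2, SLC7A5, SLC7A11, SLC43A2, SLC7A1, SLC1A5, SLC1A4, SLC1A3, SLC38A1 and SLC38A2. All 10 are among the 28152 symbols of the count table, and all 10 passed the filter on low counts that kept 16653 symbols. RNA came from BT-474 tumours, as the labels have it. BT-474 is an established line from a breast carcinoma, recorded as hormone receptor and HER2 positive, and it was grown in the mammary fat pad of female athymic nude mice, which lack mature T cells. Every animal carried an estradiol pellet (0.72 mg, 90 days) and was enrolled once its tumour passed 95 cubic millimetres. Vehicle animals (6 tumours) received 5% mannitol in water under the skin every 4 days. Treated animals (5 tumours) received evexomostat in that vehicle at 12 mpk, and all tumours are labelled day 33. Evexomostat (SDX-7320, written SDX-7230 in one label field) inhibits methionine aminopeptidase 2, the enzyme that trims the first methionine from many new proteins. The comparison asks whether transcripts of the carriers differ between treated and vehicle tumours.

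Carriers differ in what they move and what drives them. SLC7A5 and SLC7A11 are light chains that reach the cell surface only when joined to SLC3A2, the heavy chain also known as CD98. SLC7A5 (LAT1) exchanges large neutral amino acids such as leucine for internal glutamine, which SLC1A5 and the SLC38 carriers bring in, and leucine uptake feeds the kinase complex mTORC1. SLC7A11 brings in cystine in exchange for glutamate and so supplies cysteine for glutathione. Several of these genes are textbook targets of ATF4, a transcription factor made when amino acids run short, which binds DNA with C/EBP partners.

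Sequence around the start of these genes is shown first, since ATF4 targets carry a composite C/EBP-ATF element. RefSeq promoter windows (GRCh38.p14, 250 bases before to 50 bases after a start) were matched for 9 of the 10 genes, with 19 windows in all because several genes have more than 1 start. The gene without a window was SLC7A11, so it was not searched for any motif. The letters TGATGNAA, searched on both strands, were found in 6 of the 19 windows, each from a different gene, against 3.62% of 35116 windows of all genes. The matches read as follows, 5′ to 3′ on the strand of the gene, with the element in capitals, and none overlaps a match of the other motifs searched.
SLC3A2 at chr11:62881726-62881748 (+): gcaggactccTTACATCAgctcc
SLC7A1 at chr13:29595664-29595691 (-): ggcgcactgcTGATGAAAcctggcgccg
SLC1A5 at chr19:46784894-46784921 (-): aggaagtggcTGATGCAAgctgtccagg
SLC1A4 at chr2:64989382-64989409 (+): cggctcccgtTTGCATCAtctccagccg
SLC1A3 at chr5:36596358-36596385 (+): aggaaatgacTGATGCAAagcagggtta
SLC38A1 at chr12:46266503-46266530 (-): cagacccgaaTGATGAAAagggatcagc

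The E-box CACGTG, bound by MYC and related factors, was found in 2 of the 19 windows against 7.26% of all windows. It lay 130 bases before the start of SLC7A5 and 50 bases before 1 of the starts of SLC1A5. The antioxidant element TGACNNNGC, bound by NRF2 and related factors, was found in 5 of 19 windows against 13.3% of all windows. It lay 2 bases before a start of SLC7A5, 37 before SLC3A2, 85 before SLC7A1, 111 before SLC1A5 and 196 before SLC1A3. Only the match of SLC3A2 is printed. SLC43A2, the only transporter of the 10 that passed the test, held none of the 3 motifs in its 3 windows. SLC38A2, which did not pass, held none either. A match is a description of letters, and binding was not measured.
SLC7A5 E-box at chr16:87869622-87869647 (-): ccggacgacgCACGTGctccgagctg
SLC1A5 E-box at chr19:46787328-46787353 (-): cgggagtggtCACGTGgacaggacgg
SLC3A2 antioxidant element at chr11:62881652-62881680 (+): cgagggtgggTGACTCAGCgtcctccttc

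For SLC43A2 the 100 bases before each annotated start are printed in lower case throughout, as no motif was found in them.
SLC43A2 at chr17:1628835-1628934 (-): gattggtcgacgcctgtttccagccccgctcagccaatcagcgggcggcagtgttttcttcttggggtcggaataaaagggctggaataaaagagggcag
SLC43A2 at chr17:1628417-1628516 (-): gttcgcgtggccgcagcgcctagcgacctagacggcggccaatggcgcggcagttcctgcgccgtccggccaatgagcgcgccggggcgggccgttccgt
SLC43A2 at chr17:1605035-1605134 (-): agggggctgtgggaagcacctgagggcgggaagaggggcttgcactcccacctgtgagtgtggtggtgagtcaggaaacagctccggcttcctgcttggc

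Libraries held 22808033 to 39249329 counts, and the transporters had 230 to 12716 counts per gene and library. Vehicle 001 stood apart: ribosomal protein genes took 14.5% of its counts (4.89% to 8.76% in the other 10 libraries). Relative to each gene's mean over all libraries, log2 CPM in vehicle 001 fell by 0.15 per doubling of exon length (slope -0.15). In the other libraries that slope was -0.06 to 0.06. Values without vehicle 001 are given where they change a call or move a value by over 1.5 times. The 11 luminal breast markers summed to 343.8 to 791.3 CPM under vehicle and 475.5 to 600.9 CPM under evexomostat, carried mainly by the luminal keratins KRT8 (mean 331.6 RPM) and KRT18 (mean 148.6 RPM). ERBB2, the gene of HER2, ranged from 23.0 to 65.3 RPM (mean 53.7 RPM), under the means of both keratins. Whether this is the level of a HER2 positive line was not tested. The hormone receptor genes ESR1 and PGR averaged under 1 RPM, as did KRT19, CDH1 and TFF1, so the transcripts do not show the hormone receptors recorded for the line. How mouse reads were handled is not given in the sources used here. Summed markers were 397.2 to 2057 CPM under vehicle and 494.3 to 1068 under evexomostat for fibroblasts, and 64.9 to 93.8 and 67.5 to 82.7 CPM for macrophages and other leukocytes. Collagens carried most of the fibroblast sum (mean RPM: COL3A1 596.0, COL1A1 167.4, COL1A2 43.4). Of the other fibroblast markers, PDGFRB averaged 26.7 RPM, PDGFRA 1.45, LUM 1.05 and DCN 0.39. The leukocyte sum was carried mainly by CD68 (mean 38.8 RPM) and LYZ (27.7), with CD14 at 5.86, PTPRC at 2.22 and CSF1R at 1.55. Summed endothelial markers were 10.4 to 22.4 and 9.92 to 14.04 CPM, and adipocyte markers 1.92 to 8.58 and 1.34 to 4.30 CPM, with 5 of 6 adipocyte markers under 1 RPM. Skeletal muscle markers summed to 4.01 to 21.5 CPM under vehicle and 5.93 to 448.7 CPM under evexomostat, the highest in evexomostat 005. Under 1 RPM on average were 4 of the 9 muscle markers (CKM, MYLPF, TNNT3 and MB) and 2 of the 5 endothelial ones. The part of these cells in the transporter values was not tested. In bulk tumour RNA, fewer cells of a type and less RNA per cell cannot be told apart.

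Scaled by exon length, the heavy chain SLC3A2 was by far the most abundant of the 10, and the level of SLC43A2 was the lowest. Levels are CPM (counts scaled to library size with TMM factors) per kilobase of exon in GENCODE 29. In vehicle tumours SLC3A2 was at 129.1 ± 26.4 (SD, n = 6), above 97.3% of the 15746 tested genes with a length, and it exceeded every other transporter in each of the 11 libraries. SLC1A5 (35.9 ± 7.11), SLC7A5 (33.4 ± 16.3), SLC38A2 (30.1 ± 7.99) and SLC7A1 (23.7 ± 8.59) followed, and each overlapped its neighbour in this order across vehicle tumours. A lower tier held SLC1A3 at 13.9 ± 3.52, SLC7A11 at 10.03 ± 1.87, SLC38A1 at 8.29 ± 3.51, SLC1A4 at 4.17 ± 1.24 and SLC43A2 at 3.04 ± 0.517, where neighbours overlapped as well. Under evexomostat SLC3A2 was again first at 133.7 ± 13.9 (SD, n = 5) and SLC43A2 last at 1.34 ± 0.314. There SLC38A1 stood sixth at 14.5 ± 2.73 and SLC1A3 eighth at 7.90 ± 2.56, while SLC7A5 (52.5 ± 9.56) was ahead of SLC1A5 (44.5 ± 4.08).

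**Figure D1:**
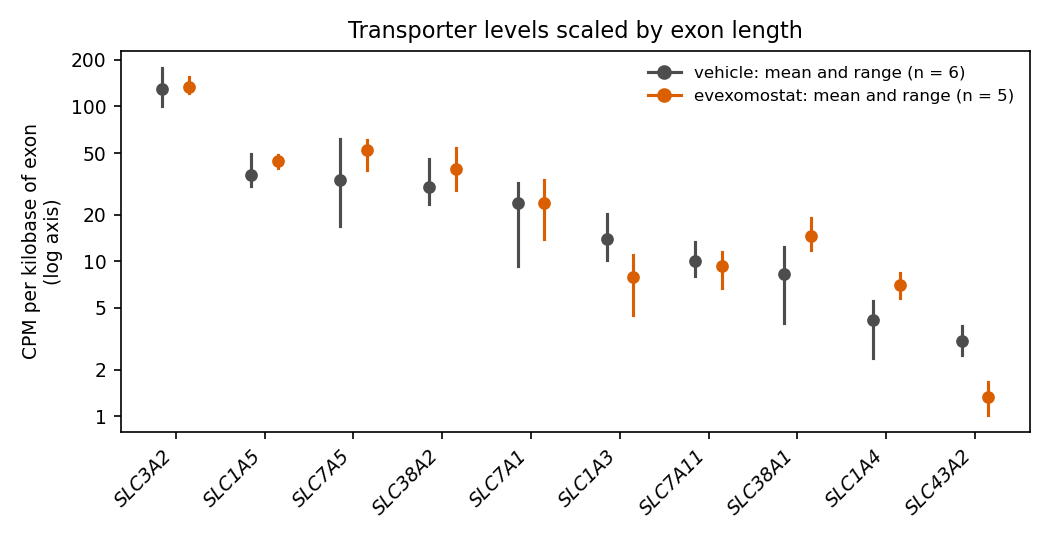
Transporter levels as CPM per kilobase of exon on a log axis, in order of the vehicle mean. Points are group means and lines run from the lowest to the highest tumour (6 vehicle, 5 evexomostat). SLC3A2 lies above all others, and SLC43A2 is lowest in both groups.

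SLC43A2 was the 1 transporter of the 10 that passed an adjusted p of 0.05 in edgeR's quasi-likelihood test, and it fell under evexomostat. Across all genes 0.606% passed, and 1 of 10 rests on a single gene. By unadjusted p under 0.05 there were 6 transporters (SLC1A5, SLC7A5, SLC1A4 and SLC38A1 with higher and SLC43A2 and SLC1A3 with lower levels), against 13.4% of all genes. The groups did not overlap in 2 transporters, SLC43A2 and SLC1A4, against 2.97% of all genes. The median log2 fold change of the 10 was 0.18, with 6 above and 4 below 0, and that of all tested genes was -0.04. When vehicle 001 was left out, 3 of 10 passed (SLC43A2 and SLC1A3 lower, SLC1A4 higher), while the share of all genes that passed went to 5.44%. The medians were then 0.22 and -0.01.

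**Figure D2:**
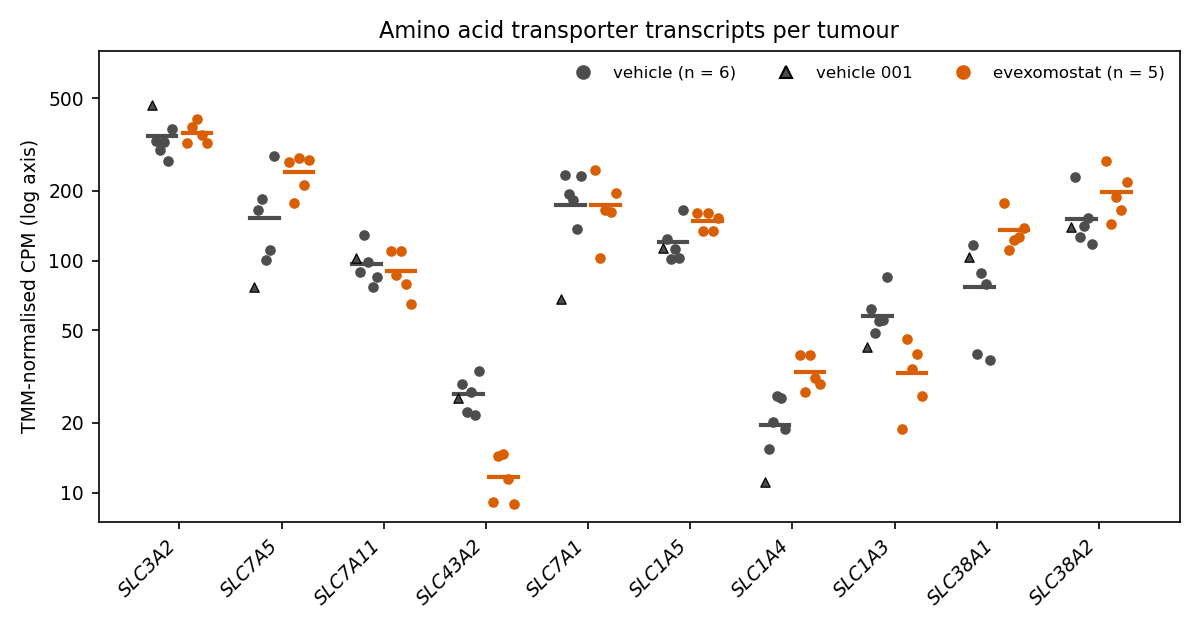
TMM-normalised CPM of each transporter in each tumour on a log axis, with vehicle in grey and evexomostat in orange. Bars are group means and the triangle is vehicle 001. The groups are apart in SLC43A2 and SLC1A4 and overlap in the other 8.

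**Figure D3:**
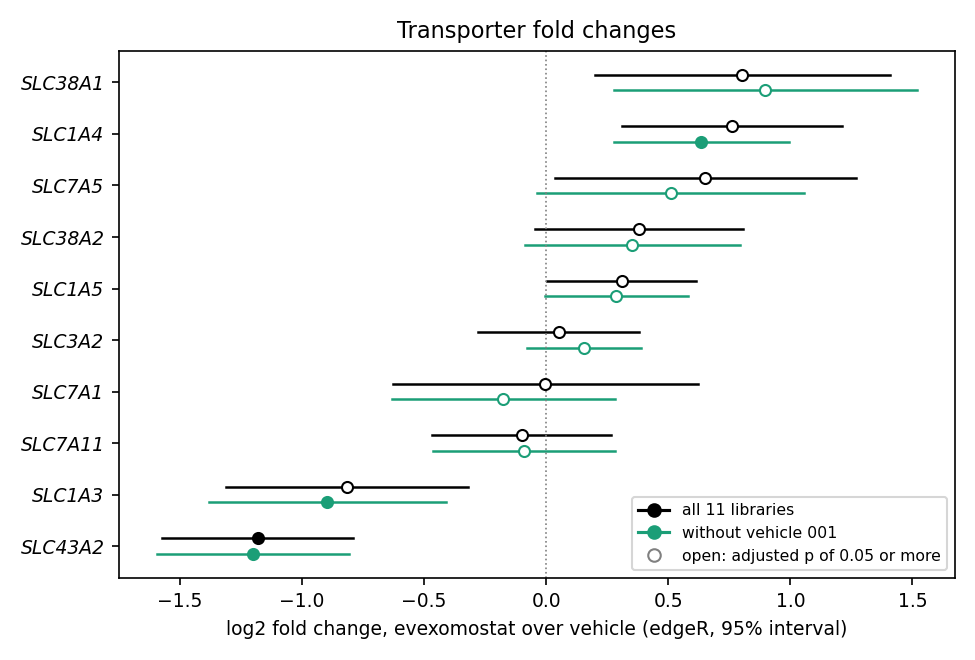
Log2 fold change of each transporter with its 95% interval from edgeR, in all 11 libraries (black) and without vehicle 001 (green). Filled points have an adjusted p under 0.05: SLC43A2 in both, and SLC1A4 and SLC1A3 without vehicle 001.

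SLC43A2 encodes LAT4, a facilitated carrier that lets branched-chain amino acids, phenylalanine and methionine pass down their gradient. Its vehicle levels ran from 21.7 to 33.6 CPM with a median of 26.3 CPM. Under evexomostat it was at 9.12 CPM in tumour 002, 14.4 in 003, 14.7 in 004, 11.5 in 005 and 8.99 in 007. Every treated tumour was thus below every vehicle tumour, and vehicle 001, at 25.5 CPM, lay within its group. The mean fell from 26.6 ± 4.52 (SD, n = 6) under vehicle to 11.7 ± 2.75 (SD, n = 5) in treated tumours, which is -1.18 on the log2 scale (SE 0.18, 95% interval -1.57 to -0.79, edgeR adjusted p 0.0163), or 2.27-fold lower. It ranked 18 of 16653 genes by p-value. The authors' deposited table lists the gene at a log2 fold change of -1.08 with an adjusted p of 0.00143, the only one of the 10 under 0.05 there. Without vehicle 001 it was -1.20 (edgeR adjusted p 0.00803). The call was lost without evexomostat 002, 005 or 007, where edgeR's adjusted p was 0.0634 to 0.0659 and the log2 fold change -1.17 to -1.10.

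SLC7A5, the other leucine carrier and the catalytic chain of LAT1, pointed the other way and varied widely. Under vehicle it ranged from 77.1 CPM in 001 to 281.5 CPM in 007, with a median of 138.1 CPM. Treated tumours were at 264.6 CPM (002), 177.3 (003), 277.4 (004), 212.3 (005) and 271.5 (007). All 5 exceeded the vehicle median, but vehicle 007 was above all of them, so the groups overlapped. The log2 fold change was 0.65 (SE 0.29, 95% interval 0.04 to 1.27, edgeR adjusted p 0.335), and 0.51 without vehicle 001 (edgeR adjusted p 0.235).

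SLC3A2, the shared heavy chain, was at 267.7 to 468.7 CPM under vehicle (median 325.3 CPM), the highest value being that of vehicle 001. Treated tumours held 321.5 CPM (002), 374.2 (003), 408.2 (004), 348.7 (005) and 322.0 (007), all inside the vehicle range. Its log2 fold change was 0.05 (95% interval -0.28 to 0.38, edgeR adjusted p 0.929), so changes beyond 0.38 in either direction lie outside the interval, though equality is not shown. Without vehicle 001 it was 0.15 (edgeR adjusted p 0.402).

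SLC7A11, the cystine carrier xCT, was at 77.1 to 128.6 CPM under vehicle (median 94.0 CPM). Under evexomostat it was at 110.2 CPM (002), 87.0 (003), 109.9 (004), 79.4 (005) and 64.9 (007). Tumour 007 was below every vehicle tumour and the other treated tumours lay within the vehicle range. The log2 fold change was -0.10 (SE 0.17, 95% interval -0.47 to 0.27, edgeR adjusted p 0.864). Leaving out 1 library moved it from -0.18 (without evexomostat 002) to -0.0021 (without vehicle 004).

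SLC7A1 encodes CAT1, the carrier of arginine, lysine and ornithine. Vehicle tumours spanned 68.1 CPM in 001 to 233.5 CPM in 003, with a median of 187.6 CPM, and the lowest of the other vehicle tumours was at 136.8 CPM. Treated tumours spanned 102.2 CPM in 003 to 245.5 CPM in 002, with 164.3 (004), 162.1 (005) and 194.8 (007) between them. The groups overlapped, at a log2 fold change of -0.0034 (SE 0.29, 95% interval -0.63 to 0.62, edgeR adjusted p 0.998), whose sign turned with several settings. Without vehicle 001 it was -0.175 (edgeR adjusted p 0.647).

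Within the SLC1 family, SLC1A4 and SLC1A5 encode the neutral amino acid exchangers ASCT1 and ASCT2, and SLC1A3 encodes EAAT1, a sodium-driven carrier of glutamate and aspartate. SLC1A4 ranged from 11.2 CPM in vehicle 001 to 26.1 CPM in vehicle 005 (median 19.5 CPM). Treated tumours were at 39.2 CPM (002), 27.2 (003), 39.1 (004), 31.2 (005) and 29.4 (007). All 5 were above all 6 vehicle tumours. The log2 fold change was 0.76 (SE 0.21, 95% interval 0.31 to 1.21) and missed the threshold with all libraries (edgeR adjusted p 0.126), but without vehicle 001 it passed, at 0.64 (edgeR adjusted p 0.0458). That library was the lowest of the 11.

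SLC1A5, the main glutamine carrier of many tumour cells, was at 101.9 to 165.2 CPM under vehicle (median 112.9 CPM), where vehicle 007 stood above the next vehicle tumour at 123.2 CPM. Treated tumours held 160.6 CPM (002), 134.0 (003), 160.2 (004), 133.6 (005) and 153.1 (007). All 5 were above 5 of the 6 vehicle tumours and below vehicle 007. The log2 fold change was 0.31 (SE 0.14, 95% interval 0.0036 to 0.61, edgeR adjusted p 0.366). In GENCODE 29 an opposite-strand transcript, AC008622.2, covers 23.4% of its exon bases, and the use of strand in counting is not given in the sources used here.

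SLC1A3 was lower in treated tumours, at 18.9 CPM (002), 46.0 (003), 34.2 (004), 39.4 (005) and 26.2 (007). Vehicle tumours ranged from 42.5 CPM in 001 to 84.8 CPM in 007 (median 55.0 CPM). Only treated tumour 003 reached into the vehicle range, and it overlapped only vehicle 001. The log2 fold change was -0.81 (SE 0.23, 95% interval -1.31 to -0.32, edgeR adjusted p 0.134), and without vehicle 001 it passed at -0.90 (edgeR adjusted p 0.0404).

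SLC38A1 and SLC38A2 encode SNAT1 and SNAT2, sodium-coupled carriers that load cells with glutamine, alanine and other small neutral amino acids. SLC38A1 ranged from 37.2 CPM in vehicle 007 to 116.2 CPM in vehicle 003 (median 83.8 CPM). Treated tumours were at 177.1 CPM (002), 110.7 (003), 123.2 (004), 126.1 (005) and 137.6 (007). All but tumour 003 were above every vehicle tumour. It had the highest fold change of the 10, a log2 value of 0.80 (SE 0.28, 95% interval 0.20 to 1.41), with an edgeR adjusted p of 0.224, and 0.90 without vehicle 001 (edgeR adjusted p 0.0828).

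SLC38A2 was at 118.0 to 228.8 CPM under vehicle (median 139.9 CPM), with 003 far above the next vehicle tumour at 152.3 CPM. Treated tumours held 268.5 CPM (002), 144.0 (003), 187.5 (004), 164.7 (005) and 217.8 (007). All 5 were above the vehicle median, and the groups overlapped. The log2 fold change was 0.38 (SE 0.20, 95% interval -0.05 to 0.81, edgeR adjusted p 0.435), and 0.24 without evexomostat 002, the highest of the 11 tumours (edgeR adjusted p 0.715).

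Carriers that work in sequence or share a role were compared across tumours in 4 pairs, with p-values adjusted over the 4. The paralogs SLC38A1 and SLC38A2 varied together over the 11 tumours (Pearson r = 0.80, permutation p 0.00317, adjusted 0.00634; Spearman rho = 0.87, permutation p 0.00089, adjusted 0.00356), and r was 0.80 without vehicle 004 and 007, the tumours farthest from the median of SLC38A1. With group means removed r was 0.71, and in the 6 vehicle tumours alone it was 0.74 (exact permutation p 0.0597, adjusted 0.239), with rho = 0.77 (exact permutation p 0.103, adjusted 0.411). SLC1A5 and SLC7A5, glutamine importer and glutamine-exchanging leucine carrier, had r = 0.81 (permutation p 0.00312, adjusted 0.00634) and rho = 0.78 (permutation p 0.00673, adjusted 0.0135), and r = 0.94 without vehicle 004 and 006. With group means removed r was 0.69, while in vehicle tumours alone r was 0.65 (exact permutation p 0.154, adjusted 0.308) and rho only 0.20 (exact permutation p 0.714, adjusted 0.803). Neither relation thus passed within the vehicle group, and no correlation was computed for the 5 treated tumours alone. All values come from the same libraries and share their scaling.

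The heavy chain did not follow its light chains in the same way. SLC3A2 and SLC7A5 had r = -0.07 (permutation p 0.834, adjusted 0.834) and rho = 0.05 (permutation p 0.882, adjusted 0.882), a value that rests on vehicle 001, which had the highest SLC3A2 and the lowest SLC7A5. Without vehicle 001 r was 0.57, and without vehicle 001 and evexomostat 004, the tumours farthest from the median of SLC3A2, it was 0.49. In vehicle tumours r was -0.23 (exact permutation p 0.675, adjusted 0.756) and rho -0.14 (exact permutation p 0.803, adjusted 0.803). SLC3A2 and SLC7A11 had r = 0.19 (permutation p 0.578, adjusted 0.771) and rho = 0.08 (permutation p 0.818, adjusted 0.882), r = 0.10 without vehicle 001, r = -0.12 without those 2 tumours, and in vehicle tumours r = 0.15 (exact permutation p 0.756, adjusted 0.756) and rho = 0.20 (exact permutation p 0.714, adjusted 0.803).

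**Figure D4:**
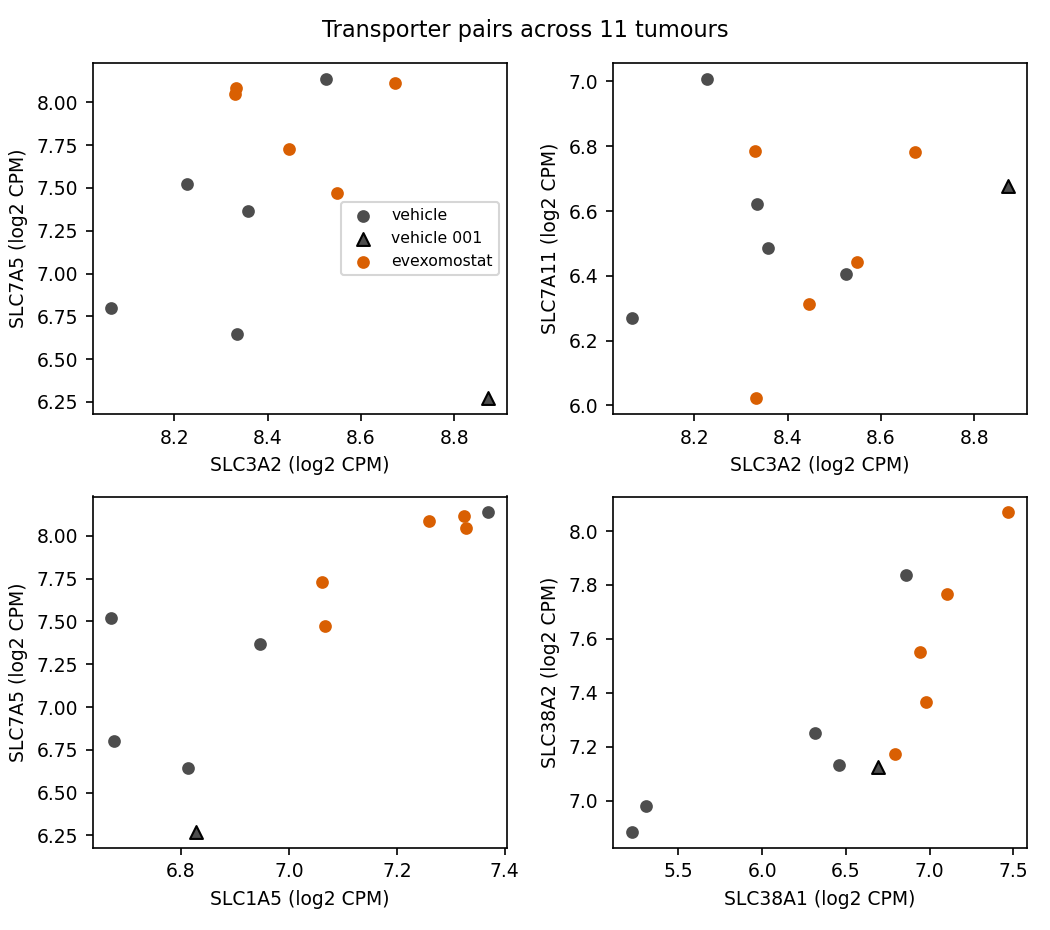
Log2 CPM of 4 transporter pairs in 11 tumours, vehicle in grey (triangle, vehicle 001) and evexomostat in orange. SLC1A5 with SLC7A5 and SLC38A1 with SLC38A2 line up (r = 0.81 and 0.80), while vehicle 001 lies at the lower right of SLC3A2 with SLC7A5 (r = -0.07).

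Genes whose levels followed each transporter most closely were ranked by Pearson r of log2 CPM after removing group means, over 10 libraries (without vehicle 001) and 13068 genes with a mean log2 CPM of at least 1. For SLC43A2 the closest were BHMT2 (r = 0.95) and SLC3A2 (r = 0.94), and for SLC3A2 they were SLC43A2 (r = 0.94) and TNFAIP3 (r = 0.92), so each of these carriers was among the 2 closest genes of the other, although SLC3A2 differed little between groups. SLC1A3 was closest to APOL6 (r = 0.99) and the complement gene C3 (r = 0.98), and SLC38A2 to ARMC1 (r = 0.99) and SPICE1 (r = 0.98). SLC7A5 was closest to DERL1 (r = 0.98) and METTL15 (r = 0.96), SLC38A1 to MKRN1 and SLC35B3 (r = 0.97 for each), and SLC7A1 to POLR1B and LMAN1 (r = 0.97 for each). SLC7A11 was closest to MAPKAPK5 (r = 0.91) and GLCE (r = 0.90), SLC1A5 to KANK4 (r = 0.95) and NDUFA9 (r = 0.94), and SLC1A4 to LINC01006 (r = 0.94) and DGAT2 (r = 0.92). These are the highest of many values over few libraries and are given as a description.

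Among 28 other surface carriers of amino acids, 15 had enough counts to be tested. Of these 1 passed, SLC7A2, and it fell, while 6 were above and 9 below 0 and the median log2 fold change was -0.10, or -0.18 without vehicle 001. SLC7A2 encodes CAT2, a cationic amino acid carrier like SLC7A1, and is inducible in inflammation. It was at 19.3 to 94.8 CPM under vehicle (median 34.1 CPM) and 9.83 to 15.7 CPM under evexomostat, without overlap. On the log2 scale it was -1.75 (SE 0.35, edgeR adjusted p 0.0462), and -1.91 without vehicle 001 (edgeR adjusted p 0.00889). The call was lost without any 1 of vehicle 003 to 006 or of the 5 treated tumours (edgeR adjusted p 0.0555 to 0.148), with upper quartile factors (0.0527) and limma-voom (0.0722), with limma-trend on RPM (0.0971 and 0.0934 at pseudocounts of 1 and 0.1) and with the replicate block (edgeR adjusted p 0.0895). SLC6A9, the glycine carrier GLYT1, was at 3.64 to 15.7 CPM under vehicle and 16.1 to 26.6 CPM under evexomostat. Its log2 difference of 1.05 (SE 0.29) missed the threshold (edgeR adjusted p 0.127) and passed without vehicle 001 at 0.86 (edgeR adjusted p 0.0221). SLC6A6, the taurine carrier, chosen after its value was seen, was at -0.97 with all libraries (edgeR adjusted p 0.2996) and passed without vehicle 001 at -1.20 (edgeR adjusted p 0.0138). With all libraries DESeq2 called 2 of the 15, quality weights 3 and limma-voom 0. Of all 16653 genes they called 649, 1059 and 89. The 13 carriers with too few counts reached at most 16 counts in any library, among them SLC7A3, SLC7A10 and SLC38A4.

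None of 17 lysosomal and mitochondrial carriers and none of 30 genes that report amino acids to mTORC1 passed in edgeR. At an unadjusted p under 0.05 there were 1 and 4, against 13.4% of all genes. DESeq2, limma-voom and limma-voom with quality weights also called none of either list. Their median log2 fold changes were -0.09 and -0.07, and -0.18 and -0.03 without vehicle 001. By the size of the fold change, the mitochondrial carriers SLC25A12, for aspartate and glutamate (-0.37, edgeR adjusted p 0.393), and SLC25A29, for basic amino acids (0.36, edgeR adjusted p 0.666), led the first list. NPRL3 of the GATOR1 complex (0.44, edgeR adjusted p 0.416, and 0.27 without vehicle 001, its lowest tumour) and FNIP2, a folliculin partner (-0.54, edgeR adjusted p 0.189), were picked from the second. The leucine sensor SESN2, chosen after its values were seen, was at 38.7 to 49.0 CPM under vehicle and 51.3 to 62.8 CPM under evexomostat, without overlap, at a log2 fold change of 0.34 (edgeR adjusted p 0.211). Its paralog SESN1, chosen in the same way, was lower, at 13.6 to 15.75 CPM under vehicle and 9.71 to 12.97 CPM under evexomostat. It did not overlap either (log2 fold change -0.33, edgeR adjusted p 0.296), and 2.97% of all genes had no overlap.

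The amino acid stress list holds ATF4, the kinases that lead to it and its target genes. None of its 19 genes passed in edgeR with all libraries, and 4 had an unadjusted p under 0.05, against 13.4% of all genes. DESeq2 and quality weights each called 2, and limma-voom 0, against 649, 1059 and 89 of all 16653 genes. The median log2 fold change of the list was -0.02, with 9 above and 10 below 0. CHAC1, which breaks down glutathione, was at 4.12 to 9.79 CPM under vehicle and 8.05 to 14.9 CPM under evexomostat (log2 fold change 1.01, SE 0.26, edgeR adjusted p 0.0992). DDIT4, an mTORC1 inhibitor, was at -0.83 (SE 0.46, edgeR adjusted p 0.466). PHGDH, the first enzyme of serine synthesis, averaged 243.0 ± 65.0 CPM (SD, n = 6) under vehicle and 404.0 ± 40.1 under evexomostat (SD, n = 5), without overlap (log2 fold change 0.73, edgeR adjusted p 0.0992). Without vehicle 001 CHAC1 (1.21, edgeR adjusted p 0.0118) and PHGDH (0.79, edgeR adjusted p 0.0301) passed. ATF4 itself was at 345.2 ± 58.4 and 415.2 ± 43.4 CPM (log2 fold change 0.27, edgeR adjusted p 0.447), and asparagine synthetase, ASNS, was low, at 1.93 ± 0.564 and 3.41 ± 1.06 CPM (log2 fold change 0.82, edgeR adjusted p 0.209). At an unadjusted p under 0.05, 3 genes of the list were higher, against 4.82% of all genes. The 1 lower gene at that level was ATF3 (log2 fold change -0.32, edgeR adjusted p 0.351), against 8.55% of all genes. CEBPB was also lower, at -0.53 (edgeR adjusted p 0.428). PHGDH, ATF4, ASNS, ATF3 and CEBPB were named after their values were seen.

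In edgeR 0 passed of 17 tested genes that use glutamine, branched-chain amino acids or arginine, and 0 of 14 genes of glutathione and NRF2. At an unadjusted p under 0.05 there were 4 and 5, against 13.4% of all genes. DESeq2 called 1 and 3, quality weights 1 and 2, and limma-voom 0 of either. Of all 16653 genes these tools called 649, 1059 and 89. GPT2, a mitochondrial alanine transaminase, was at 25.2 to 48.6 CPM under vehicle and 51.6 to 69.1 CPM under evexomostat, without overlap (log2 fold change 0.69, SE 0.16, edgeR adjusted p 0.0701), and passed without vehicle 001 at 0.59 (edgeR adjusted p 0.0203). ODC1, which makes putrescine from ornithine, was at 0.59 (SE 0.32, edgeR adjusted p 0.459). In the glutathione list 10 of 14 genes were below 0, with a median of -0.21, against 55.4% of all tested genes below 0 and their median of -0.04. Its 5 genes at an unadjusted p under 0.05 were all lower, as were 1423 of the 2225 such genes among all tested. GCLM, the modifier subunit of the enzyme that starts glutathione synthesis, was at -0.64 (SE 0.18, edgeR adjusted p 0.126) and HMOX1, heme oxygenase, at -0.68 (SE 0.28, edgeR adjusted p 0.30). GCLC, the catalytic subunit, named after its value was seen, passed without vehicle 001 at -0.61 (edgeR adjusted p 0.0375).

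**Figure D5:**
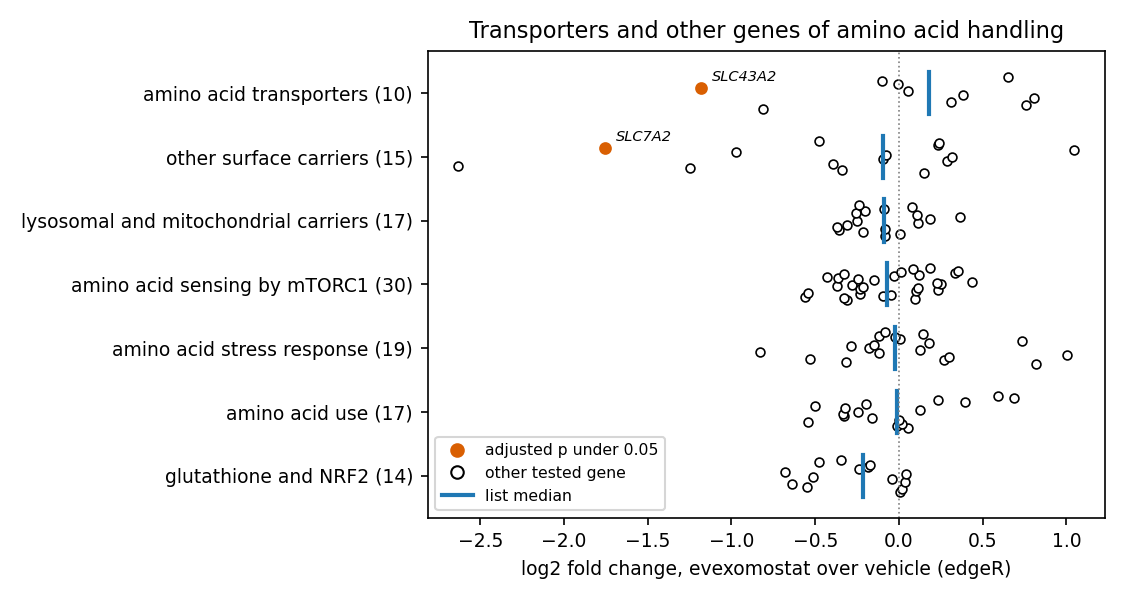
Log2 fold changes of the 10 transporters and of 6 lists of other amino acid genes (number tested in brackets), with the list median as a blue bar. SLC43A2 and SLC7A2 are the only points with an adjusted p under 0.05 (orange), and both lie below 0.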

How the data were processed

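The authors deposited whole-number read counts per gene symbol, RPM values (counts scaled to the library's total) and a comparison table with log2 fold changes, p-values and adjusted p-values. The submitters' processing notes name bcl2fastq 2.17, STAR 2.7.5c, featureCounts (Subread), edgeR and the builds GRCh37 and hg19. Which annotation was used, whether strand was used in counting, and how mouse reads were treated is not given in the sources used here. Groups and replicate numbers came from sample titles, and columns were matched by the code in each description.

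Counts were filtered with filterByExpr (minimum count 10, minimum total 15), scaled by TMM and tested by quasi-likelihood in edgeR 4.0.16 (R 4.3.3, limma 3.58.1, DESeq2 1.42.0), adjusted by Benjamini-Hochberg over all 16653 tested genes. Alternatives kept this set of genes, except where the filter itself changed. Each kind of model was tested on simulated data. Correlations used log2 CPM with a prior count of 2 and 100000 permutations (SciPy 1.17.1), or every ordering for 6 tumours, all two-sided. Separate animals are implied by the titles, but nothing else records them. Named list genes were those past the threshold and the 2 largest absolute fold changes per list with a mean log2 CPM of at least 1. The transporters and lists were chosen with earlier results of these data known. In duplicate checks no pair of libraries agreed within sampling noise (smallest chi-square per degree of freedom 16.4). The precision of counts covers counting error only.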

Additional observations from a re-analysis of the deposited data

Results flagged for a closer look

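In 44 groups (22 named genes in each treatment), the highest or lowest tumour lay apart from the rest of its group 7 times. The rule would flag about 2.2 (1 in 20 groups) if values were normal and groups independent. CPM were used without logs and the genes share libraries, so the 2 counts are no test of chance. Both cases among the transporters were in vehicle tumours: SLC1A5 in vehicle 007 at 165.2 CPM (the other 5 at 101.9 to 123.2) and SLC38A2 in vehicle 003 at 228.8 CPM, against 118.0 to 152.3. SLC25A12 was at 94.7 CPM in vehicle 007, against 44.1 to 59.2. SLC25A29 was at 42.0 CPM in vehicle 006, against 12.5 to 20.6, and at 43.3 CPM in evexomostat 003, against 20.3 to 26.8. NPRL3 was at 12.8 CPM in vehicle 001, against 29.4 to 36.5. DDIT4 was at 353.9 CPM in evexomostat 002, against 84.2 to 114.2.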

How the results depend on the processing

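SLC43A2 kept its direction in all 22 alternatives (log2 fold change -1.28 to -1.04) and its call in 18. The exceptions were the omission of evexomostat 002, 005 or 007 and the replicate block. Of 10 transporters 3 passed with DESeq2 and 6 with limma-voom quality weights, where all genes went from 101 to 649 and 1059. Leaving out 1 library gave 0 to 3 transporters and 1 to 906 genes; where edgeR called 0 (without evexomostat 002, 005 or 007), 4, 6 and 4 transporters had an unadjusted p under 0.05, beside 1872, 1816 and 1643 of all 16653 genes. The cause was not tested.

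Numbers 003, 004, 005 and 007 are shared by the groups, with correlations of deviations of -0.27, 0.07, 0.05 and -0.10. The labels do not say what the numbers stand for, and so few correlations cannot settle whether they pair the tumours. The replicate block on these 8 libraries called 0 transporters (5 at an unadjusted p under 0.05, beside 3330 of all genes) and 99 genes, and the same libraries without it 711 genes.

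SLC7A1 was at -0.455 with the replicate block and -0.428 on the same 8 libraries without it (edgeR adjusted p 0.244 and 0.184), and SLC7A5 at 0.43 and 0.37. The sign of SLC7A1 turned in other settings: it was at 0.0459 with upper quartile factors, 0.0551 with limma-voom, 0.0015 with no count filter, 0.0042 at a mean log2 CPM of at least 1, and 0.144 and 0.146 with limma-trend at an RPM pseudocount of 1 and of 0.1. Those RPM fits shifted the all-gene median by 0.11 and 0.14. Leaving out 1 library moved SLC7A1 from -0.175 (without vehicle 001) to 0.138 (without evexomostat 003). It moved SLC3A2 from -0.0102 (without vehicle 006) to 0.155 (without vehicle 001). The correlation of SLC3A2 with SLC7A5 was 0.11 on log2(RPM + 1) and 0.57 without vehicle 001. Without vehicle 001, an alternative added after the data were seen, 7 of 112 tested genes of the pathway lists passed (6.25%), against 1, while the share of all genes went from 0.606% to 5.44%.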

Other observations

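Per exon length, the ratio of the light chain SLC7A5 to the heavy chain SLC3A2 ran from 0.0952 in vehicle 001 and 0.18 in vehicle 005 to 0.442 in vehicle 007, and from 0.274 to 0.488 in treated tumours. The ratio of SLC7A11 to SLC3A2 ran from 0.06 to 0.118 under vehicle and from 0.0555 to 0.0943 under evexomostat. Transcripts of the heavy chain thus outnumbered those of either light chain in all 11 tumours on this scale. Summed over the 10 transporters, levels were 1030 to 1424 CPM under vehicle and 1217 to 1615 CPM under evexomostat.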
